A study of Danio rerio with 8 samples.

Results

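Long noncoding RNA genes were described in epicardial cells (EpiCs), the outer layer of the heart, and in cardiomyocytes (CMs) of zebrafish larvae that carried or lacked functional tcf21, which encodes a transcription factor of the epicardium. The genes were selected on their annotation and on their level, as the rows of the normalised count table whose Ensembl biotype is lincRNA or antisense and whose mean over the 8 libraries is at least 50. This rule kept 127 genes out of 790 rows of these biotypes and 21286 genes in the table, namely 107 lincRNA genes and 20 antisense genes. Since the level chose them, their levels are a description without a test.

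The 4 groups were EpiCs that were tcf21-/- or tcf21+/+ and CMs that were tcf21-/- or tcf21+/+, each with 2 libraries, and all came from hearts dissected at 96 hpf. Every larva carried the reporters Tg(myl7:mCherry-CAAX), which marks CMs, and TgBAC(tcf21:nls-EGFP), which marks EpiCs. EpiCs were sorted as GFP-positive cells, including cells positive for both reporters, and CMs as mCherry-positive cells without GFP. Heterozygous parents gave the tcf21-/- larvae, while wild-type siblings were bred for the tcf21+/+ larvae, so genotype and parentage cannot be told apart. The tcf21-/- hearts taken had kept EpiCs over much of the ventricle, which limits them as a model of epicardial loss. The methods call the replicates biological and spread the sorting over several sessions, but which session or cross gave which library is not stated, so the tests below measure the spread between these libraries.

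Long noncoding RNAs are transcripts that are processed much like messenger RNAs but do not encode a long protein. Intergenic ones (lincRNAs) lie between coding genes, whereas antisense ones are transcribed from the strand opposite to another gene. They are known to act in the nucleus on chromatin and splicing or in the cytoplasm on other RNAs, and as a class they are usually scarce and restricted to few cell types. For most genes described here no role is known, and they carry only the name of the clone on which they were annotated.

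The libraries held an estimated 6.44 M to 11.4 M reads counted on genes. In tcf21+/+ cells, 11 of 11 epicardial marker genes were called higher in EpiCs than in CMs, and 11 of 11 cardiomyocyte marker genes were called lower. These lists include tcf21 and myl7, whose reporters defined the sort, and were chosen with earlier results of these data known. The calls are therefore no independent check of the sort. The summed value of the cardiomyocyte markers was 10982 to 12109 in tcf21-/- EpiCs and 10449 to 15224 in tcf21+/+ EpiCs, against 89661 to 95786 in tcf21-/- CMs and 95962 to 97981 in tcf21+/+ CMs. EpiC libraries therefore held cardiomyocyte transcripts at a similar level in both genotypes. Endothelial markers summed to 6650 to 7874 in EpiCs and 889 to 1796 in CMs, and smooth muscle markers to 14251 to 17360 in EpiCs and 2342 to 4470 in CMs. The 5 leukocyte markers found summed to 1465 to 2041 in tcf21-/- CMs, against 417 to 536 in tcf21+/+ CMs. The part of these cells in the results below was not tested. The targeted gene, tcf21, had values of 1636 and 1454 in tcf21-/- EpiCs, against 1600 and 1851 in tcf21+/+ EpiCs, so its transcript did not tell the genotypes apart in EpiCs. In CMs it had 5 and 12 in tcf21-/-, against 80 and 28 in tcf21+/+, which did not overlap and was not called (log2FC -2.46, SE 0.54, Padj=0.137).

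Long noncoding RNA genes were a small share of the transcripts counted. Of the 790 lincRNA and antisense rows, 16.1% reached a mean value of 50, against 64.1% of 19857 protein-coding rows. Among the 127 genes, 48 had a mean from 50 to below 100, 54 from 100 to below 300, 20 from 300 to below 1000, and 5 reached 1000. The 3 genes just inside the limit were CU062632.1 (51.0), CABZ01070527.1 (50.75) and CR847898.4 (50.25). The 3 rows just outside it were CABZ01074708.1 (49.75), CR352226.5 (49.5) and CABZ01118767.1 (48.0). Values are read counts scaled per library and not divided by transcript length, so the order of genes is an order of reads rather than of RNA copies.

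Together the 127 genes took 0.392% and 0.365% of all values in tcf21-/- EpiCs, against 0.387% and 0.403% in tcf21+/+ EpiCs. They took 0.48% and 0.474% in tcf21-/- CMs and 0.517% and 0.473% in tcf21+/+ CMs. The CM libraries were thus all above the EpiC libraries, with the genotypes close to each other. Without the 3 most abundant genes the shares were 0.278% to 0.304% in EpiCs and 0.269% to 0.279% in CMs. The higher share in CMs was therefore carried by those 3 genes, which include pln, a gene that encodes a protein. In bulk libraries of this kind, fewer cells that express a gene and less RNA per cell cannot be told apart.

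The most abundant gene was CR383676.2 (ENSDARG00000099970, GRCz11 chromosome 14, 45631236 to 45638712), whose current symbol is malat1, a nuclear RNA of the splicing speckles. Its values were 5791 and 5119 in tcf21-/- EpiCs, 5650 and 6091 in tcf21+/+ EpiCs, 7169 and 6580 in tcf21-/- CMs, and 9299 and 6648 in tcf21+/+ CMs. It was abundant in every library, and each EpiC library lay below each CM library. The cell type difference was not called in tcf21-/- (log2FC -0.34, SE 0.17, Padj=0.161) or in tcf21+/+ (log2FC -0.42, SE 0.17, Padj=0.0797). In tcf21+/+ it depended on 1 library, since without the second tcf21+/+ CM library the log2FC was -0.66 and the gene was called.

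The second, pln (current symbol pln1, ENSDARG00000069404, chromosome 20, 41911214 to 41926484), has the biotype antisense but encodes phospholamban, the small membrane protein that restrains the calcium pump of the sarcoplasmic reticulum. It had values of 1662 and 980 in tcf21-/- EpiCs, against 6767 and 5860 in tcf21-/- CMs. In tcf21+/+ the values were 2140 and 1401 in EpiCs, against 9308 and 6330 in CMs. It was lower in EpiCs of both genotypes, with a log2FC of -2.30 in tcf21-/- (SE 0.30, Padj=0.000477) and -2.15 in tcf21+/+ (SE 0.30, Padj=0.000628). pln lies inside cep85l on the opposite strand, and cep85l itself had values of 625 and 455 in tcf21+/+ EpiCs, against 31 and 101 in tcf21+/+ CMs. This overlapping pair thus differed between the cell types in opposite directions.

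The third was oip5-as1 (ENSDARG00000093456, chromosome 13, 33261131 to 33301170), also known as cyrano, a long noncoding RNA conserved among vertebrates and known in mammals to pair with a microRNA. Its values were 1469 and 1782 in tcf21-/- EpiCs, against 6007 and 5323 in tcf21-/- CMs. In tcf21+/+ it had 1271 and 1314 in EpiCs, against 5549 and 4953 in CMs. The replicates were close and the cell types far apart, with a log2FC of -1.80 in tcf21-/- (SE 0.16, Padj=5.64e-05) and -2.02 in tcf21+/+ (SE 0.16, Padj=3.22e-05). Its span overlaps 3 other genes.

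**Figure D1:**
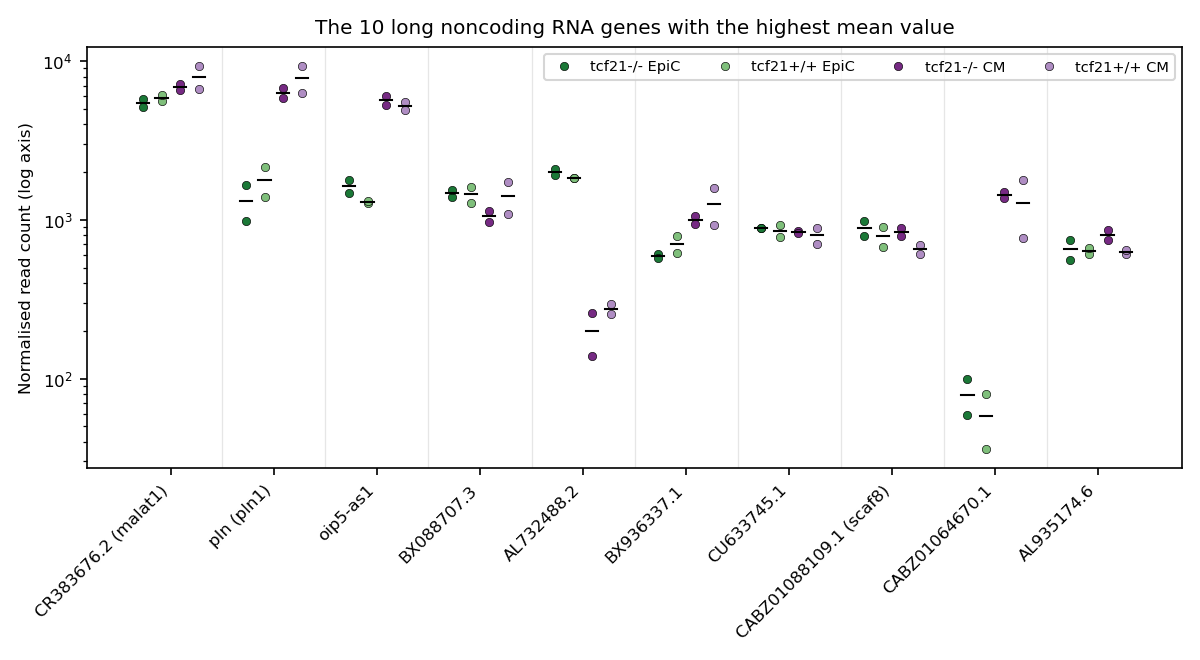
Normalised read count in each library (points, log axis) of the 10 genes with the highest mean value, with group means as bars, for the 4 groups. CR383676.2 (malat1) lies between 5119 and 9299 in all libraries, whereas pln, oip5-as1 and CABZ01064670.1 are lower in EpiCs and AL732488.2 is higher.

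Of the other 7 genes among the 10 most abundant, 1 was higher in EpiCs of both genotypes and 1 was lower in both. AL732488.2 (current symbol si:rp71-1c10.7) had 2084 and 1920 in tcf21-/- EpiCs, against 260 and 139 in tcf21-/- CMs, and 1835 in each tcf21+/+ EpiC library, against 255 and 295 in tcf21+/+ CMs. Its log2FC was 3.39 in tcf21-/- (SE 0.29, Padj=5.14e-05) and 2.74 in tcf21+/+ (SE 0.29, Padj=0.000128). CABZ01064670.1, on chromosome 10, showed the opposite order. It had 59 and 99 in tcf21-/- EpiCs, against 1495 and 1366 in tcf21-/- CMs, and 80 and 36 in tcf21+/+ EpiCs, against 771 and 1792 in tcf21+/+ CMs. Its log2FC was -4.21 in tcf21-/- (SE 0.50, Padj=0.000279) and -4.43 in tcf21+/+ (SE 0.50, Padj=0.000197).

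BX936337.1 was lower in tcf21+/+ EpiCs (616 and 786) than in tcf21+/+ CMs (1581 and 932), with a log2FC of -0.80 (SE 0.26, Padj=0.0379). This call was weak, since it was lost when any of 7 of the 8 libraries was left out, with a Padj of 0.0625 to 0.208, and also without the abundance trend (Padj=0.0948) and with only the groups compared (Padj=0.127). In tcf21-/- the gene had 611 and 573 in EpiCs, against 1051 and 946 in CMs, and was not called (Padj=0.0507). BX088707.3, CU633745.1, CABZ01088109.1 and AL935174.6 were not called in either comparison of cell types. Their values over all 8 libraries were 974 to 1725, 706 to 933, 607 to 982 and 559 to 867.

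Annotation as noncoding was not settled for all of these genes. A current symbol was found for 89 of the 127 genes, and 28 of these symbols were found in RefSeq (assembly GRCz12tu), where 18 are protein-coding. They include pln, CABZ01088109.1 (scaf8, which encodes a protein that binds RNA polymerase II), CABZ01083943.1 (kif1ca, a kinesin motor), CU467961.1 (mast4, a kinase), CU681842.1 (tob2, an antiproliferative protein), CR933559.1 (tex264b), CR381618.1 (znf469), nadsyn1 and mhc1zda. The others are known by clone-based symbols only, namely AL732488.2, CU633745.1, AL935174.6, BX957346.1, BX323884.1, CU179758.1, si:ch211-39i2.2, CU693502.1 and BX510657.1. CABZ01074913.1 and CU062632.1 bear the symbols ddx41 and ube2o. CR356236.1 and CABZ01087564.1 bear the symbols of noncoding genes, linc-mir30e-2 and lnc.265. A further row of the table, protein-coding and on chromosome 2, has the symbol nadsyn1 as well, and reads that aligned to more than 1 place were not counted, so the values of both copies are uncertain.

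Of these named genes, 4 were called between cell types in addition to pln. CU467961.1 (mast4) had 360 and 207 in tcf21+/+ EpiCs, against 91 and 100 in tcf21+/+ CMs (log2FC 1.51, SE 0.38, Padj=0.012), and 193 and 194 in tcf21-/- EpiCs, against 177 and 131 in tcf21-/- CMs, which was not called. CABZ01083943.1 (kif1ca) had 300 and 231 in tcf21-/- EpiCs, against 152 and 94 in tcf21-/- CMs (log2FC 1.13, SE 0.35, Padj=0.0306), and was not called in tcf21+/+. Each of these genes was higher in EpiCs in the genotype in which it was called. CU681842.1 (tob2) had 83 and 60 in tcf21-/- EpiCs, against 233 and 284 in tcf21-/- CMs (log2FC -1.85, SE 0.44, Padj=0.00933). It also had 99 and 66 in tcf21+/+ EpiCs, against 162 and 285 in tcf21+/+ CMs (log2FC -1.40, SE 0.44, Padj=0.0308). CABZ01087564.1 (lnc.265) had 89 and 119 in tcf21+/+ EpiCs, against 22 and 40 in tcf21+/+ CMs (log2FC 1.76, SE 0.52, Padj=0.0257). The interaction below called none of these genes. It called 0 of all 16077 genes tested, so it cannot show whether these differences differed between the genotypes. The calls between cell types depended on single libraries and on the fit. CU467961.1 lost its call without the first tcf21+/+ EpiC library (Padj=0.0993). CABZ01083943.1 lost it without any 1 of the 4 EpiC libraries or the second tcf21-/- CM library (Padj of 0.0555 to 0.171), and when only the groups compared were fitted (Padj=0.0582). CABZ01087564.1 lost it without either tcf21+/+ EpiC library or the first tcf21+/+ CM library (Padj of 0.0696 to 0.132), with library weights (Padj=0.0589) and with only the groups compared (Padj=0.0711). CU681842.1 lost it in tcf21-/- without the second library of EpiCs or CMs (Padj=0.069 and 0.0584), and in tcf21+/+ without either EpiC library or the second CM library (Padj of 0.0557 to 0.158). The tcf21+/+ call of CU681842.1 was also lost with equal totals (Padj=0.0527), library weights (Padj=0.0663) and only the groups compared (Padj=0.0848). CR356236.1 (linc-mir30e-2), CABZ01074913.1 (ddx41), CR933559.1 (tex264b), CR381618.1 (znf469), nadsyn1, mhc1zda and CU062632.1 (ube2o) were not called between cell types.

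EpiCs and CMs differed at many long noncoding RNA genes. In tcf21-/- cells, 22 of 127 genes (17.3%) were called higher in EpiCs than in CMs, where 21.0% of the 16077 genes tested were, and 29 (22.8%) were called lower, where 18.0% were. In tcf21+/+ cells, 34 genes (26.8%) were called higher in EpiCs, where 22.9% of all genes tested were, and 29 (22.8%) were called lower, where 18.8% were. Called here means a Benjamini-Hochberg adjusted P (Padj) under 0.05 and an absolute log2FC of at least 0.59, with limma on log2(value + 1). Among the rows of all biotypes whose mean reached 50, 21.4% were called higher and 19.8% lower in tcf21-/- EpiCs, and 23.1% were called higher and 21.1% lower in tcf21+/+ EpiCs. The shares among the long noncoding RNA genes were thus near those of the table as a whole.

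The size of the differences was larger than among all genes tested. The median absolute log2FC between cell types was 1.13 in tcf21-/- and 1.36 in tcf21+/+ among the 127 genes. It was 0.73 in tcf21-/- and 0.78 in tcf21+/+ among all 12933 genes whose mean reached 50. Among all 16077 genes tested it was 0.86 in tcf21-/- and 0.91 in tcf21+/+. These sets were not matched for level, since the median of the mean values was 136.5 among the 127 genes. Among protein-coding genes whose mean reached 50 it was 437.38. The part of level in the size of the differences was not tested. For 8 of the 127 genes (6.3%, against 1.28% of all genes whose mean reached 50) each CM library held at most 3 estimated reads. The rule itself favoured a difference for such genes, and their part in these medians was not tested. The spread between replicates was larger than among protein-coding genes in all groups but tcf21+/+ CMs, with a median absolute log2 difference between the 2 libraries of 0.363 in tcf21-/- EpiCs, 0.309 in tcf21+/+ EpiCs, 0.333 in tcf21-/- CMs and 0.462 in tcf21+/+ CMs. Among protein-coding genes whose mean reached 50 this difference was 0.233, 0.268, 0.232 and 0.488 in the same order of groups. The median signed log2FC was 0.12 in tcf21-/- and 0.23 in tcf21+/+ among the 127 genes, near the 0.09 and 0.11 of all genes tested.

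The log2FC between cell types came from different libraries in the 2 genotypes. All libraries were fitted together, however, so both comparisons used the same estimate of the spread for each gene. Calls in the 2 comparisons are therefore not independent. Of the 127 genes, 19 were called higher in EpiCs in both, 25 were called lower in both, and 0 were called in opposite directions. The share of all genes tested that was called in both was not computed, so these counts describe the 127 genes only. A further 7 were called in tcf21-/- alone and 19 in tcf21+/+ alone, and 57 in neither. Left out in turn, single libraries moved the number called higher to between 14 and 28 in tcf21-/- and between 21 and 33 in tcf21+/+. The lowest of these numbers came without the first tcf21-/- EpiC library and without the second tcf21+/+ EpiC library.

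**Figure D2:**
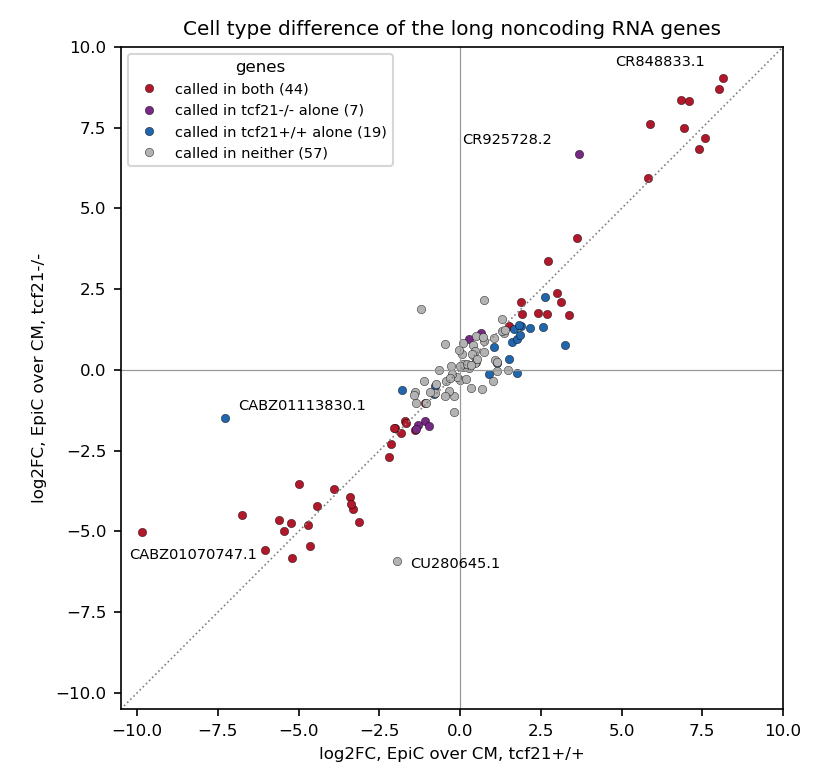
log2FC of EpiC over CM in tcf21+/+ (horizontal axis) and in tcf21-/- (vertical axis) for each of the 127 genes, coloured by the comparison in which a gene was called, with equal values on the dotted line. The 44 genes called in both lie in the lower left and upper right corners, and CABZ01070747.1 and CABZ01113830.1 lie farthest from the line among the called genes.

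At the upper end stood genes that were nearly absent from CMs. At most 3 estimated reads in each CM library were found for 8 of 127 genes (6.3%), where 1.28% of all genes whose mean reached 50 had this, and 3 of the 8 were at 0 in all 4 CM libraries. They reached the mean of 50 through EpiCs alone, so that the rule itself favoured a difference between the cell types for them. Among them, CR925728.2 was nevertheless not called in tcf21+/+. The reverse, at most 3 estimated reads in each EpiC library, was found for 1 gene (0.79%, against 0.21%). A count of 0 allows up to 3 reads, and reads amplified without molecular identifiers are not independent molecules, so that this limit covers counting error only.

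CR848833.1 (ENSDARG00000117428, chromosome 1, 15355857 to 15498152) had 466 and 583 in tcf21-/- EpiCs, with 318 and 251 in tcf21+/+ EpiCs, and was at 0 in all 4 CM libraries. Against the limit of 3 reads per library it was at least 165-fold higher in EpiCs in tcf21-/- and at least 72.0-fold higher in tcf21+/+. FO818704.2 (ENSDARG00000117361, chromosome 7, 69868210 to 69881980) had 278 and 625 in tcf21-/- EpiCs, with 261 and 252 in tcf21+/+ EpiCs, and was also at 0 in all CM libraries. It was at least 142-fold higher in EpiCs in tcf21-/- and at least 64.9-fold higher in tcf21+/+. Neither gene has a current symbol, and both were detected in every EpiC library.

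CABZ01092746.1 (ENSDARG00000117319, chromosome 13, 52107945 to 52111988) is not among these 8 genes, since it had more than 3 estimated reads in some CM libraries. It was likewise far higher in EpiCs. It too reached the mean required by the rule through EpiCs alone, so that the rule itself favoured this difference. The same holds for CR356233.1, described further below. CABZ01092746.1 had 1189 and 1141 in tcf21-/- EpiCs, against 0 and 12 in tcf21-/- CMs. In tcf21+/+ it had 1088 and 1258 in EpiCs, against 14 and 4 in CMs. The fitted log2FC of CABZ01092746.1 was 8.34 in tcf21-/- (SE 1.06, Padj=0.000397) and 7.08 in tcf21+/+ (SE 1.06, Padj=0.000855). The values were steady across the 4 EpiC libraries and differed little between the genotypes.

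A further 5 of the 8 genes with at most 3 estimated reads in each CM library follow, and the last of the 8, CR925728.2, is described at the end. CR848683.2, which spans 246903 bases of chromosome 15, had 319 and 406 in tcf21-/- EpiCs, with 268 and 225 in tcf21+/+ EpiCs, against 0 or 3 in each CM library. BX510657.1 had 326 and 324 in tcf21-/- EpiCs, with 222 and 179 in tcf21+/+ EpiCs, against 0 to 2 in CMs. BX640522.2 had 164 and 236 in tcf21-/- EpiCs, with 141 and 95 in tcf21+/+ EpiCs, against 0 to 3 in CMs. All of these EpiC values lay far above the few reads in CMs.

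BX511021.3 and BX511021.4 lie on the same strand of chromosome 3 with a gap of 149 bases. BX511021.3 had 267 and 231 in tcf21-/- EpiCs, with 197 and 184 in tcf21+/+ EpiCs. BX511021.4 had 194 and 199 in tcf21-/- EpiCs, with 182 and 154 in tcf21+/+ EpiCs. Each was at 0 in 3 CM libraries and at 2 in the fourth, a different one for each gene. On the log2 scale their values over the 8 libraries had a Pearson correlation of 0.98, given as a description since the difference between cell types alone sets it. The pair is not independent if it belongs to a single transcript, which was not tested.

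**Figure D3:**
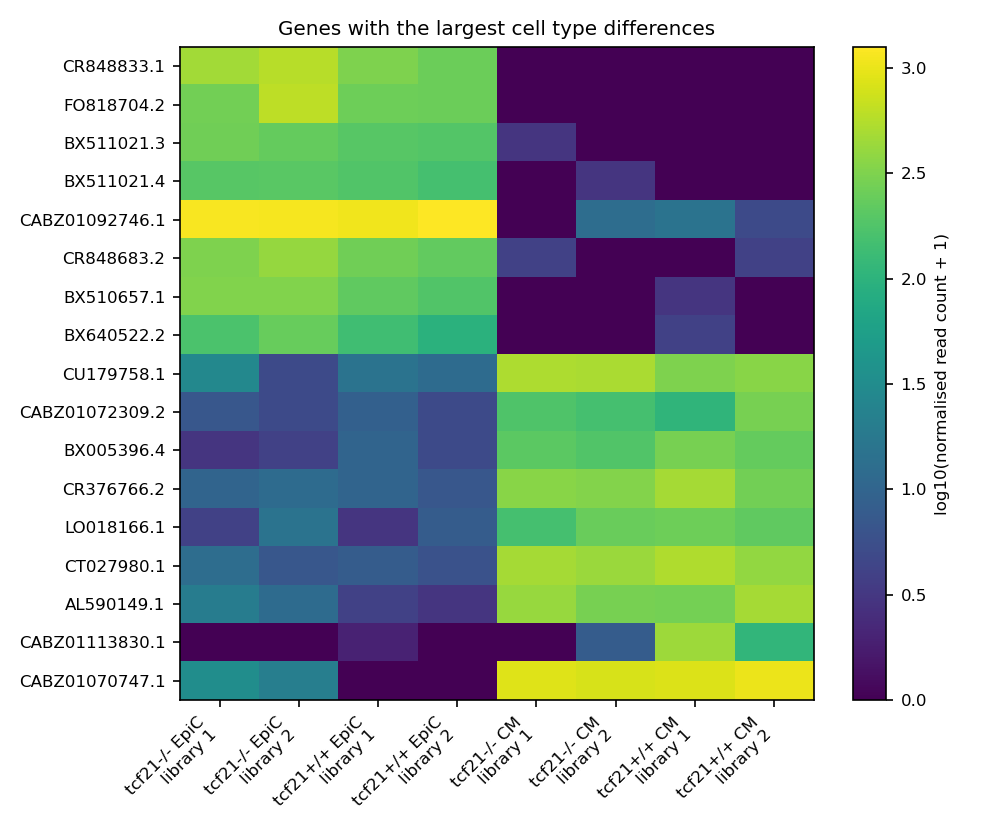
Normalised read count as log10(value + 1), by colour, of the 17 genes with the largest called differences between cell types (rows) in each of the 8 libraries (columns). The upper 8 rows are high in EpiCs and near 0 in CMs, and the lower 9 rows show the reverse, except that CABZ01113830.1 is high in tcf21+/+ CMs alone.

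At the lower end stood genes of CMs, most of which kept a few reads in EpiCs. CT027980.1, CU179758.1, BX005396.4, LO018166.1 and CABZ01072309.2 reached the mean required by the rule through CMs alone. The rule itself therefore favoured a difference between the cell types for these genes. It did so also for AL590149.1, CR376766.2, CR751602.2 and CABZ01070747.1, described further below. CT027980.1 (ENSDARG00000104999, chromosome 13, 7346601 to 7347745) had 12 and 6 in tcf21-/- EpiCs, against 484 and 431 in tcf21-/- CMs, and 7 and 5 in tcf21+/+ EpiCs, against 533 and 390 in tcf21+/+ CMs. Its log2FC was -5.58 in tcf21-/- (SE 0.53, Padj=9.06e-05) and -6.04 in tcf21+/+ (SE 0.53, Padj=5.65e-05). CU179758.1 lies 6189 bases away on the same strand and had 27 and 4 in tcf21-/- EpiCs, against 517 and 505 in tcf21-/- CMs. In tcf21+/+ it had 14 and 11 in EpiCs, against 316 and 357 in CMs. The EpiC and CM values of both genes were far apart in either genotype.

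BX005396.4, on chromosome 7, had 2 and 3 in tcf21-/- EpiCs, against 207 and 181 in tcf21-/- CMs, and 9 and 4 in tcf21+/+ EpiCs, against 293 and 234 in tcf21+/+ CMs. BX005003.1, 42716 bases away on the opposite strand and named for its place only, had 30 and 73 in tcf21-/- EpiCs, against 985 and 924 in tcf21-/- CMs. In tcf21+/+ it had 128 and 55 in EpiCs, against 689 and 1043 in CMs. Both were lower in EpiCs, with a log2FC in tcf21+/+ of -5.22 for BX005396.4 (SE 0.62, Padj=0.00025) and -3.32 for BX005003.1 (SE 0.52, Padj=0.00106).

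LO018166.1, on chromosome 16, had 3 and 14 in tcf21-/- EpiCs, against 152 and 246 in tcf21-/- CMs (log2FC -4.65, SE 0.81, Padj=0.00208). In tcf21+/+ it had 2 and 7 in EpiCs, against 256 and 217 in CMs (log2FC -5.59, SE 0.81, Padj=0.000711). CABZ01072309.2, on chromosome 22, had 6 and 4 in tcf21-/- EpiCs, against 176 and 154 in tcf21-/- CMs, and 8 and 4 in tcf21+/+ EpiCs, against 105 and 287 in tcf21+/+ CMs. In each of these genes, every EpiC library lay below every CM library.

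Neighbouring genes were set beside these patterns as a description, without a test. Of the 127 genes, 29 overlap another gene of the table, 26 of them with the overlapping gene on the opposite strand, 47 lie within 5000 bases of their nearest gene, and 51 lie farther away. The kit does not mark the strand as far as the labels and methods say, so that reads of genes that overlap on opposite strands cannot be told apart. By the methods, reads over more than 1 gene were not counted.

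Among the genes within 5000 bases, the log2FC between tcf21+/+ EpiCs and CMs of 40 genes and of their neighbours had a Pearson correlation of 0.70, and a Spearman correlation of 0.50. It was 0.42 for 23 overlapping genes and 0.15 for 41 genes farther away. For neighbouring pairs of protein-coding genes it was 0.17 within 5000 bases (5882 pairs). These correlations run across genes that share the same libraries and are descriptions only. The value within 5000 bases rested partly on a few large differences. It was 0.55 over the 38 genes whose neighbour is not itself among the 127, and 0.37 over the 34 genes whose neighbour had an absolute log2FC under 4. In tcf21-/- it was 0.60 over all 40 genes and 0.04 over the 35 genes under that limit.

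**Figure D4:**
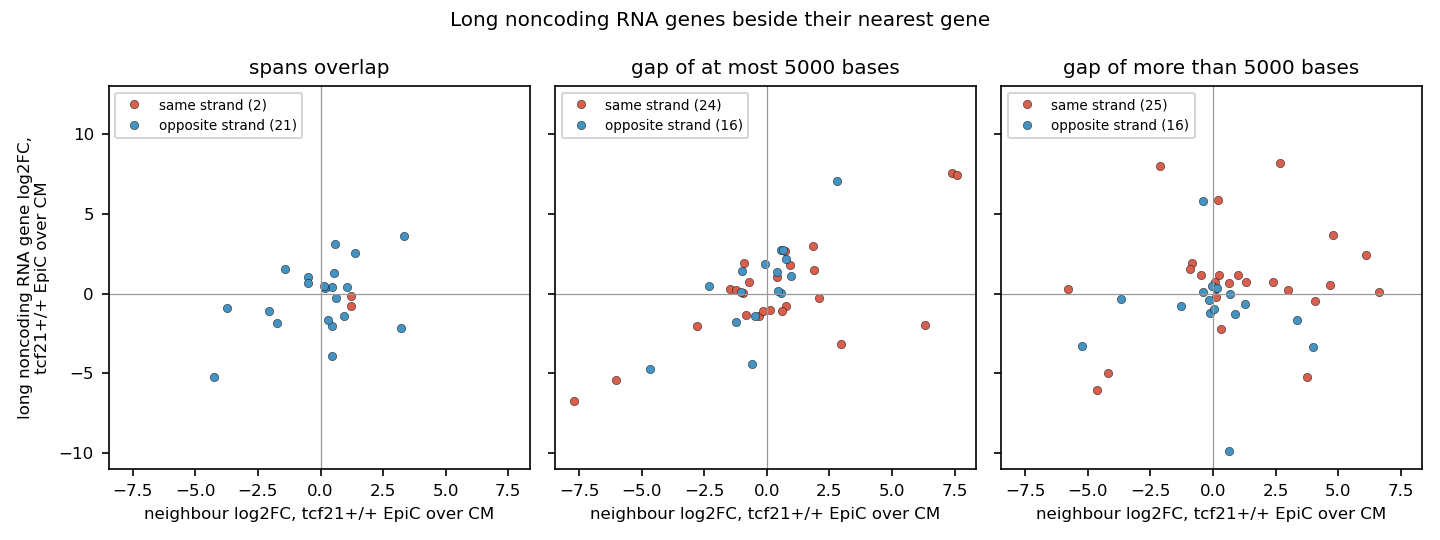
log2FC between tcf21+/+ EpiCs and tcf21+/+ CMs of each long noncoding RNA gene (vertical axis) against that of its nearest gene (horizontal axis), for overlapping genes, genes within 5000 bases and genes farther away, coloured by relative strand. The points at both ends of the middle panel, with AL590149.1 and CR376766.2 at the lower left and the pair BX511021.3 and BX511021.4 at the upper right, have similar values on both axes.

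The lowest of these points belonged to AL590149.1 (ENSDARG00000012581, chromosome 17, 33206780 to 33231714) and to CR376766.2 (ENSDARG00000100443, chromosome 13, 2352289 to 2352995). AL590149.1 had 19 and 11 in tcf21-/- EpiCs, against 413 and 288 in tcf21-/- CMs, and 3 and 2 in tcf21+/+ EpiCs, against 282 and 481 in tcf21+/+ CMs. It lies 1034 bases from efr3ba on the same strand, and efr3ba, which encodes a protein of the plasma membrane, had 7 and 0 in tcf21+/+ EpiCs, against 311 and 1114 in tcf21+/+ CMs. CR376766.2 had 9 and 11 in tcf21-/- EpiCs, against 350 and 337 in tcf21-/- CMs, and 9 and 6 in tcf21+/+ EpiCs, against 483 and 273 in tcf21+/+ CMs. It lies 1527 bases from klhl31 on the same strand, and klhl31, a gene of striated muscle, had 56 and 35 in tcf21+/+ EpiCs, against 2899 and 2951 in tcf21+/+ CMs. Both genes thus differed between the cell types in the same direction as the coding gene beside them.

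Other neighbours were chosen after their values were seen. CABZ01072309.2 lies 160 bases from CABZ01072309.1 on the opposite strand, which had 42 and 22 in tcf21+/+ EpiCs, against 640 and 970 in tcf21+/+ CMs. AL954322.2 lies 257 bases from tbx2b, a transcription factor of the atrioventricular canal, on the opposite strand. AL954322.2 had 88 and 65 in tcf21+/+ EpiCs, against 264 and 261 in tcf21+/+ CMs (log2FC -1.78, SE 0.39, Padj=0.00617), and tbx2b had 573 and 504, against 881 and 1776. CU693502.1 lies 3196 bases from cbfa2t2, a transcriptional corepressor, and had 276 and 351 in tcf21+/+ EpiCs, against 42 and 35 in tcf21+/+ CMs (log2FC 2.99, SE 0.39, Padj=0.000435). Its neighbour had 605 and 675 in tcf21+/+ EpiCs, against 165 and 192 in tcf21+/+ CMs.

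Opposite directions occurred as well. BX537342.1 lies 2500 bases from aldoaa, a glycolytic aldolase, on the same strand, and had 223 and 330 in tcf21+/+ EpiCs, against 57 and 92 in tcf21+/+ CMs (log2FC 1.89, SE 0.47, Padj=0.0118). aldoaa was lower in tcf21+/+ EpiCs, with 1981 and 2300, against 4805 and 3277 in tcf21+/+ CMs. Of the 40 genes within 5000 bases with a tested neighbour, 25 had the sign of the neighbour, 9 were called in the same direction as it and 2 in the opposite direction. The call of BX537342.1 was lost without the second tcf21+/+ EpiC library (Padj=0.098) or the first tcf21+/+ CM library (Padj=0.0524). Where both genes of such a pair were called, the same direction was more frequent than the opposite one. The 9 include BX511021.3 and BX511021.4, each as the neighbour of the other. In tcf21-/-, 23 of the 40 had the sign of the neighbour. Such counts were not made for pairs of protein-coding genes, so they describe these genes only.

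The 20 antisense genes showed the same variety. In tcf21+/+, 5 of the 20 were called higher and 6 lower in EpiCs, where 22.9% and 18.8% of all genes tested were. In tcf21-/-, 3 of the 20 were called higher and 6 lower, where 21.0% and 18.0% of all genes tested were. These counts include pln (lower) and si:ch211-39i2.2 (higher) in both genotypes, whose current symbols are protein-coding in RefSeq. CR356233.1 overlaps MDFIC, a gene of the MyoD family inhibitor domain, and had 232 and 302 in tcf21-/- EpiCs, against 10 and 21 in tcf21-/- CMs. In tcf21+/+ it had 248 and 290 in EpiCs, against 24 and 18 in CMs, with a log2FC of 4.09 in tcf21-/- (SE 0.52, Padj=0.000406) and 3.63 in tcf21+/+ (SE 0.52, Padj=0.000703). MDFIC had 1307 and 1415 in tcf21+/+ EpiCs, against 104 and 169 in tcf21+/+ CMs, the same direction at a higher level.

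CR589944.1 overlaps cishb, a suppressor of cytokine signalling, and had 386 and 499 in tcf21-/- EpiCs, against 920 and 850 in tcf21-/- CMs (log2FC -1.01, SE 0.26, Padj=0.0141). In tcf21+/+ it had 307 and 375 in EpiCs, against 886 and 596 in CMs (log2FC -1.10, SE 0.26, Padj=0.00892). Its partner was lower in EpiCs too, with 411 and 443 in tcf21+/+ EpiCs, against 2254 and 1428 in tcf21+/+ CMs. AL929058.1, a lincRNA gene that overlaps rcan2, a regulator of calcineurin, had 118 and 83 in tcf21-/- EpiCs, against 428 and 353 in tcf21-/- CMs, with a log2FC of -1.96 (SE 0.32, Padj=0.00142). CR589944.1 lost its call in tcf21-/- without the first EpiC library or either CM library (Padj of 0.0577 to 0.104), and in tcf21+/+ without the first EpiC library (Padj=0.0676). In tcf21-/-, rcan2 had 357 and 406 in EpiCs, against 1564 and 1188 in CMs. In these 3 pairs the overlapping genes moved in the same direction, and their reads cannot be assigned to a strand. They are 3 of the 23 overlapping genes with a tested neighbour. Of these 23, 12 in tcf21+/+ and 13 in tcf21-/- had the sign of the neighbour. In tcf21+/+, 5 were called in the same direction as the neighbour and 3 in the opposite one, and in tcf21-/- 4 and 4.

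By contrast, CR751602.2 was lower in EpiCs than in CMs while the gene it overlaps, fam172a, differed little. CR751602.2 had 21 and 16 in tcf21-/- EpiCs, against 194 and 323 in tcf21-/- CMs, and 44 and 24 in tcf21+/+ EpiCs, against 525 and 473 in tcf21+/+ CMs. Its log2FC was -3.70 in tcf21-/- (SE 0.49, Padj=0.000483) and -3.90 in tcf21+/+ (SE 0.49, Padj=0.000332). The values of fam172a were 504 and 662 in tcf21-/- EpiCs, against 790 and 561 in tcf21-/- CMs. BX901920.1 was higher in tcf21+/+ EpiCs (172 and 176) than in tcf21+/+ CMs (57 and 63), with a log2FC of 1.52 (SE 0.43, Padj=0.0201), and its overlapping gene scrn2 was lower (241 and 241 against 466 and 891). The call of BX901920.1 was lost without either tcf21+/+ EpiC library or the first tcf21+/+ CM library (Padj of 0.0507 to 0.0912), and with library weights (Padj=0.0575).

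Between the genotypes, few long noncoding RNA genes were called, as were few genes of the table as a whole. In EpiCs, 1 of 127 genes was called higher in tcf21-/- than in tcf21+/+, where 0.0435% of the genes tested were, and 0 were called lower, where 0.149% were. At an unadjusted P under 0.05, 5 of the 127 were higher and 6 lower, against 670 higher and 690 lower of all 16077 genes tested. The values of the 2 genotypes did not overlap for 30 genes that were higher in tcf21-/- EpiCs, where 21.6% of all genes tested were apart in this way, and for 31 genes that were lower, where 21.5% were. These numbers amount to about the same share of the 127 genes as of the table.

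In CMs, 0 of 127 genes were called in either direction with limma, where 0.249% of the genes tested were called higher in tcf21-/- CMs and 0.118% lower. At an unadjusted P under 0.05, 6 of the 127 were higher and 5 lower, against 1179 higher and 785 lower of all 16077 genes tested. The values did not overlap for 25 genes that were higher in tcf21-/- CMs, where 20.6% of all genes tested were apart, and for 24 genes that were lower, where 19.3% were. The test of the difference between the genotype effects in EpiCs and in CMs called 0 of the 127 genes, as of all genes tested (0.0%). At an unadjusted P under 0.05, 4 of the 127 were positive and 5 negative, against 407 positive and 730 negative of all 16077 genes tested. The median log2FC of tcf21-/- over tcf21+/+ was -0.07 in EpiCs and 0.00 in CMs among the 127 genes, and -0.01 and 0.00 among all genes tested.

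The gene called in EpiCs was CABZ01070747.1 (ENSDARG00000117546, chromosome 10, 1982550 to 1991468), a lincRNA gene without a current symbol. It had 32 and 20 in tcf21-/- EpiCs and was at 0 in both tcf21+/+ EpiC libraries. Its values were 884 and 820 in tcf21-/- CMs and 854 and 1011 in tcf21+/+ CMs. It was thus a transcript of CMs that was found at a low level in tcf21-/- EpiCs and not in tcf21+/+ EpiCs. Against the limit of 3 reads per library it was at least 10.4-fold higher in tcf21-/- EpiCs (Padj=0.0192).

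In tcf21+/+ it was at least 371-fold lower in EpiCs than in CMs, and in tcf21-/- it was lower in EpiCs with a log2FC of -5.02 (SE 0.48, Padj=9.05e-05). The summed cardiomyocyte markers in tcf21-/- EpiCs (10982 and 12109) lay within the range in tcf21+/+ EpiCs (10449 and 15224). The part of cardiomyocyte transcripts in the genotype difference of CABZ01070747.1 was not tested. The call in EpiCs was lost when the 4 EpiC libraries were fitted alone (Padj=0.107). It was also lost without any of the 4 EpiC libraries or either tcf21-/- CM library (Padj of 0.0712 to 0.12), while the fitted log2FC was 4.39 to 5.04. The interaction for this gene was 4.84 on the log2 scale (SE 0.68, Padj=0.122) and was not called, although it was in a fit without the abundance trend (Padj=0.0221). Its nearest gene in the table, tdgf1, which encodes a coreceptor of Nodal signals, lies 20620 bases away and had 479 and 452 in tcf21-/- EpiCs, against 783 and 929 in tcf21+/+ EpiCs.

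**Figure D5:**
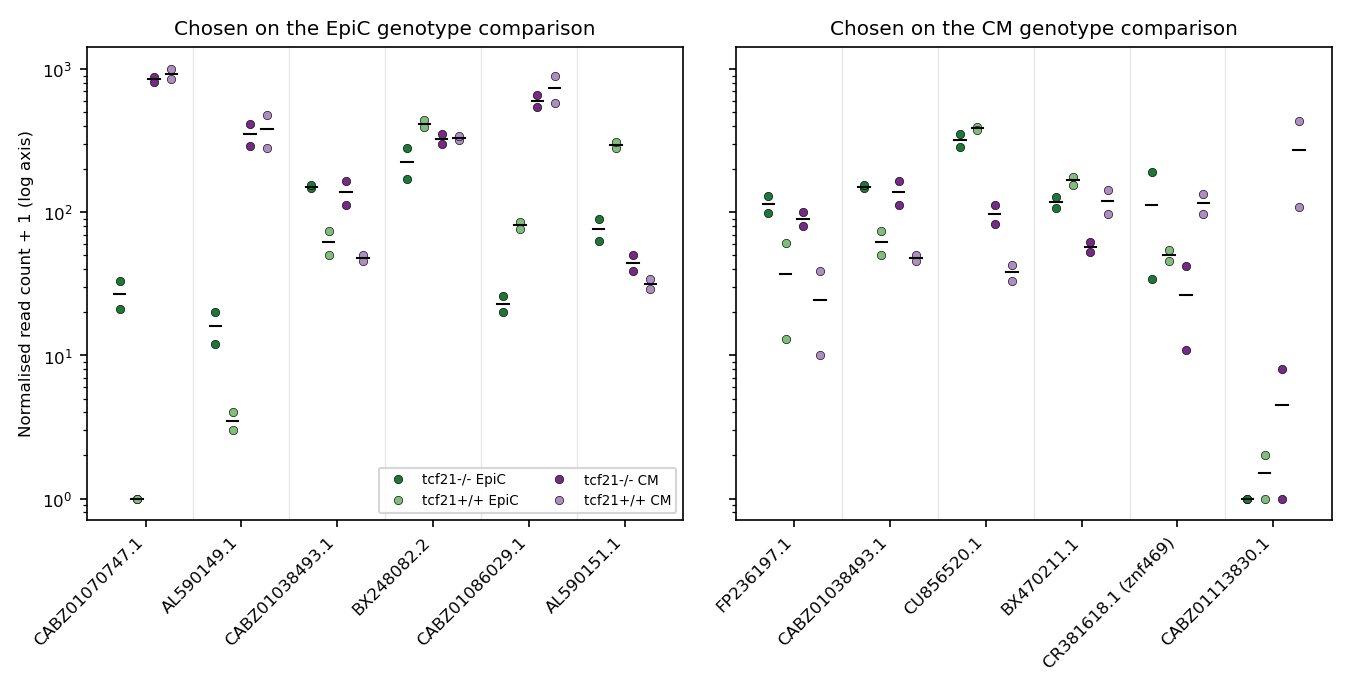
Normalised read count + 1 in each library (points, log axis) with group means as bars, for the genes named from the genotype comparison in EpiCs (left) and in CMs (right). CABZ01070747.1 is at 32 and 20 in tcf21-/- EpiCs and at 0 in both tcf21+/+ EpiC libraries, and CABZ01113830.1 is at 0 and 7 in tcf21-/- CMs and at 437 and 108 in tcf21+/+ CMs.

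The genes with the smallest unadjusted P beside it in EpiCs were not called. AL590149.1, described above, had 19 and 11 in tcf21-/- EpiCs, against 3 and 2 in tcf21+/+ EpiCs (log2FC 2.16, SE 0.58, Padj=0.281), also a transcript of CMs. CABZ01038493.1 had 146 and 154 in tcf21-/- EpiCs, against 73 and 49 in tcf21+/+ EpiCs (log2FC 1.31, SE 0.45, Padj=0.438). On the lower side, CABZ01086029.1 had 25 and 19 in tcf21-/- EpiCs, against 85 and 76 in tcf21+/+ EpiCs (log2FC -1.84, SE 0.36, Padj=0.123). None of these pairs of groups overlapped, yet none passed the test over all genes.

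AL590151.1 had 62 and 89 in tcf21-/- EpiCs, against 282 and 311 in tcf21+/+ EpiCs (log2FC -1.98, SE 0.46, Padj=0.2). In CMs it stood at 49 and 38 in tcf21-/-, against 33 and 28 in tcf21+/+, so that it was called higher in EpiCs than in CMs in tcf21+/+ (log2FC 3.24, SE 0.46, Padj=0.000664) and not in tcf21-/-. The difference between these effects was not called (Padj=0.342). BX248082.2, an antisense gene over ankib1b, had 279 and 170 in tcf21-/- EpiCs, against 394 and 438 in tcf21+/+ EpiCs (log2FC -0.93, SE 0.30, Padj=0.39). CABZ01086029.1 was called with library weights (Padj=0.0321) and in no other setting.

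In CMs the smallest unadjusted P belonged to CABZ01113830.1 (ENSDARG00000117370, chromosome 2, 47312577 to 47324379). It had 0 and 7 in tcf21-/- CMs, against 437 and 108 in tcf21+/+ CMs, and 0 or 1 in all EpiC libraries. The fitted log2FC was -6.27 (SE 1.19, Padj=0.0952) and was not called, with a large gap between the tcf21+/+ CM libraries. It was called with a pseudocount of 8 (Padj=0.0352) and without the second tcf21+/+ CM library (Padj=0.0299). The gene was called lower in EpiCs than in CMs in tcf21+/+ (Padj=0.00137) but not in tcf21-/-, where CMs held next to none. The difference between these effects was not called (Padj=0.414). Only the tcf21+/+ CM libraries brought this gene to the mean required by the rule. The rule itself therefore favoured its genotype difference in CMs and its cell type difference in tcf21+/+.

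The other genes named in CMs were not called either. CU856520.1 had 112 and 82 in tcf21-/- CMs, against 42 and 32 in tcf21+/+ CMs (log2FC 1.36, SE 0.37, Padj=0.233). CABZ01038493.1 had 111 and 164 in tcf21-/- CMs, against 49 and 45 in tcf21+/+ CMs (log2FC 1.50, SE 0.45, Padj=0.281), the same direction as in EpiCs. FP236197.1 had 100 and 79 in tcf21-/- CMs, against 9 and 38 in tcf21+/+ CMs (log2FC 2.19, SE 0.88, Padj=0.387). The last of these was also apart in EpiCs, with 129 and 98 in tcf21-/- EpiCs, against 12 and 60 in tcf21+/+ EpiCs.

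On the lower side, CR381618.1 (znf469) had 41 and 10 in tcf21-/- CMs, against 134 and 97 in tcf21+/+ CMs (log2FC -2.42, SE 0.91, Padj=0.36). BX470211.1 had 52 and 61 in tcf21-/- CMs, against 143 and 96 in tcf21+/+ CMs (log2FC -1.04, SE 0.41, Padj=0.376). Both had values that did not overlap between the genotypes in CMs and did not pass the test. Leukocyte markers differed between these CM groups as given above, and their part in these values was not tested.

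A gene outside the naming rule had the largest fitted rise in CMs and is given here because its value stands apart. CU280645.1 had 338 and 262 in tcf21-/- CMs, against 0 and 88 in tcf21+/+ CMs, and 23 and 0 in tcf21-/- EpiCs, against 0 and 5 in tcf21+/+ EpiCs. The tcf21+/+ CM libraries were far from each other and the difference was not called (Padj=0.402), although it was without the second tcf21+/+ CM library. CR925728.2, likewise named after its values were seen, differed widely between replicates in EpiCs, with 51 and 203 in tcf21-/- EpiCs, with 0 and 162 in tcf21+/+ EpiCs, against 0 in all CM libraries. It was called higher in EpiCs than in CMs in tcf21-/-, where it was at least 40.0-fold higher (Padj=0.0264). That call was lost without any of the 4 tcf21-/- libraries (Padj of 0.0714 to 0.16), and in a fit without the abundance trend (Padj=0.0654). It was not called in tcf21+/+ (Padj=0.17), and the difference between these effects was not called (Padj=0.913).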

How the data were processed

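RNA from EpiCs and CMs sorted at 96 hpf was sequenced as 8 libraries, 2 in each of 4 groups taken from the sample labels. By the methods, the authors trimmed reads with Trimmomatic 0.39, aligned them to GRCz11 (danRer11) with STAR 2.7.3a and counted them per gene with featureCounts 1.6.5, leaving out reads over several genes or places. As deposited, the table holds a signal: each library's counts over a single scale factor, as whole numbers. All 8 value columns were mapped to samples.

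The step between low values showed the worth of 1 read and so gave an estimate of the reads counted: 10.57 M and 11.4 M in tcf21-/- EpiCs, 11.35 M and 9.86 M in tcf21+/+ EpiCs, 8.32 M and 9.39 M in tcf21-/- CMs, and 6.44 M and 8.64 M in tcf21+/+ CMs. The scan was restricted to 0.5 to 3 values per read. Its correlation with the observed steps was 0.466 in the second tcf21-/- CM library, against 0.714 to 0.895 in the others. The estimate for that library is therefore less certain. These depths set the limit of 3 reads below which a value was not told from 0.

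Values were tested as log2(value + 1) with limma 3.58.1 in R 4.3.3 (eBayes with an abundance trend, 2-sided), with all 8 libraries in 1 fit, over the 16077 genes whose mean value reached 10, with Benjamini-Hochberg adjustment over all of them. The fit was also run on values simulated with the same dispersion for every gene. That run does not cover genes whose replicates lie far apart. Because of the added 1, log2FC is too small for genes of low value. The authors' limits, 0.05 and 0.59, were kept. Nearest genes were taken from the gene spans in the table. Current symbols came from a gene name table by gene ID, and their biotypes from RefSeq (GRCz12tu) by symbol, and no coordinates were taken from RefSeq. Python 3.11.15 with pandas 2.3.3, numpy 2.4.6, scipy 1.17.1 and matplotlib 3.10.9 was used for the rest.

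The genes, lists and tests were chosen with earlier results of these data known. Genes were named by a rule: the 10 with the highest mean, the 6 largest called rises and falls of each pairwise comparison without overlap of the groups, in the genotype comparisons the 3 smallest unadjusted P in a direction with fewer than 3 called, symbols that are names, genes within 10000 bases of a marker gene, tcf21 or a Hox gene (none was found), and the 3 just above and below the limit of 50. Alternatives were a pseudocount of 8, other filters, scalings and fold limits, library weights, a fit without the trend, a fit of only the groups compared, a replicate block, other member rules and leaving out each library.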

Additional observations from a re-analysis of the deposited data

Results flagged for a closer look

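For 3 of the 47 named genes both libraries of tcf21-/- lay on 1 side of both libraries of tcf21+/+ in EpiCs and on the other side in CMs. Of the 127 genes, 7 (5.51%) had this, and of all genes tested 4.82%. The difference between the genotype effects in EpiCs and in CMs was tested for each and was not called. AL590151.1 had a difference of -2.47 on the log2 scale (SE 0.65, Padj=0.342), with 62 and 89 in tcf21-/- EpiCs, against 282 and 311 in tcf21+/+ EpiCs, while CMs had 49 and 38 in tcf21-/-, against 33 and 28 in tcf21+/+. CU856520.1 had a difference of -1.65 (SE 0.52, Padj=0.482), with 285 and 352 in tcf21-/- EpiCs, against 397 and 378 in tcf21+/+ EpiCs, while CMs had 112 and 82 in tcf21-/-, against 42 and 32 in tcf21+/+. CU467961.1 (mast4) had a difference of -1.16 (SE 0.54, Padj=0.735), with 193 and 194 in tcf21-/- EpiCs, against 360 and 207 in tcf21+/+ EpiCs, while CMs had 177 and 131 in tcf21-/-, against 91 and 100 in tcf21+/+.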

How the results depend on the processing

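No result given for a single gene changed direction under any alternative run. With 1 library left out in turn, the genes called higher in EpiCs than in CMs numbered 14 to 28 in tcf21-/- and 21 to 33 in tcf21+/+, and those called lower 21 to 31 and 23 to 33. Between the EpiC groups, those higher in tcf21-/- numbered 0 to 1, those lower 0 throughout, those called in either direction in tcf21-/- CMs 0 to 1, and those called for the difference between the genotype effects 0 throughout. Without the second tcf21+/+ CM library, CU280645.1 was called higher and CABZ01113830.1 lower in tcf21-/- CMs. With a mean value of at least 100 in the rule for the genes, 20 in place of 34 were on the EpiC side in tcf21+/+, since fewer genes are kept. A fit of the compared groups alone called 0 genes in place of 1 higher in EpiCs of tcf21-/-, with fewer libraries to estimate the spread, and library weights called 1 in place of 0 lower. A pseudocount of 8 called 1 gene in place of 0 lower in tcf21-/- CMs, and a fit without the abundance trend called 1 in place of 0 for the difference between the genotype effects, CABZ01070747.1. The cause of these last 3 was not tested. The labels do not say whether same-numbered libraries, such as those of EpiCs and CMs, share hearts or a session. Same-numbered libraries had correlations of deviations of -0.0805 to 0.00215 in the 4 comparisons. With 2 libraries in each group, this cannot show whether they were paired. With a replicate block, 22 genes were called higher and 25 lower in tcf21-/- EpiCs than in CMs, and 32 higher and 29 lower in tcf21+/+, and the counts between genotypes did not move. The other alternatives left each count within 1.5 times. Scaling to equal totals moved the median log2FC of all genes between tcf21+/+ EpiCs and CMs to 0.24, against 0.11, and called 35 genes higher and 27 lower there. At 6.44 M to 11.4 M reads a library, a value of 0 was not told from up to 3 reads, and genes near the limit of 50 rest on few reads.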
